A study of Mus musculus with 32 samples.

Results

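The 10 secretory genes followed here, best known from saliva and other mucosal fluids, were measured in 32 primary mouse melanomas. They are Bpifa2, Amy1, Smr3a, Dcpp1, Dcpp2, Dcpp3, Pip, Muc19, Aqp5 and Slpi, and all 10 were found among the 50600 genes of the tables of counts and of TPM, a level that corrects for gene length and library size. The genes were picked by name because Bpifa2 had a very high value in a single tumour, Ecad female 3, and because Bpifa2 and Slpi stood out between ΔEcad and Ecad females. Their levels in females are therefore given as a description, and only the comparison between male groups was tested.

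The tumours were taken whole and measured by sequencing of polyadenylated RNA. All mice carried a Tyr::Nras Q61K transgene, which drives the oncogene from the tyrosinase promoter of melanocytes, had 1 functional copy of the tumour suppressor Cdkn2a, and had both copies of the E-cadherin gene Cdh1 flanked by loxP sites (Cdh1 F/F). In ΔEcad mice a Cre driven by the tyrosinase promoter (Tyr::CreA, named so in the methods of the study) deletes Cdh1 in cells of the melanocyte lineage, whereas Ecad mice had no Cre, and Cdh1 in other cells of the tumour stays intact. There were 8 tumours in each of 4 groups (Ecad male, ΔEcad male, Ecad female and ΔEcad female), the mice had a C57BL/6J background and received no treatment named in the labels, and age was not given. The labels do not say whether the tumours of a group came from separate mice, so the p-values measure the spread between these tumours.

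Saliva is made by acinar cells, which release water, enzymes and mucins, and is modified by ducts that carry it to the mouth. Bpifa2, also called parotid secretory protein, binds lipids and bacterial lipopolysaccharide, Amy1 is the amylase that cleaves starch, and Smr3a encodes a precursor of small proline-rich peptides. The Dcpp genes encode demilune cell and parotid proteins, Pip is the prolactin-induced protein of many exocrine fluids, Muc19 is a gel-forming mucin, Aqp5 is the water channel of the acinar cell membrane, and Slpi is a secreted inhibitor of neutrophil proteases that is also made by skin and immune cells.

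The 120 bases before the start of these genes were read because 7 of them peaked in the same tumour. Printed are Bpifa2, Amy1, Smr3a, Dcpp1 and Pip of those, and Aqp5 and Slpi, which peaked elsewhere. The windows of Dcpp2, Dcpp3 and the first start of Amy1 are not printed. The sequences are those of RefSeq on GRCm38.p6, which listed 10 starts for 9 of the 10 genes, 2 of them for Amy1, and are written on the strand of the gene. Capitals mark the letters TATAA, the core of the TATA box, on either strand.
Bpifa2, chr2:154008156-154008275, plus strand: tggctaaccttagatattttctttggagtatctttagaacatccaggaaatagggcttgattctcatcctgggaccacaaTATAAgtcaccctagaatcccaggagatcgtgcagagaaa
Amy1, second start, chr3:113574763-113574882, minus strand: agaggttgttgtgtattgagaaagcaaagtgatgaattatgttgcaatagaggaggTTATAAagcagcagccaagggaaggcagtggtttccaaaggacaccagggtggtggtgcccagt
Smr3a, chr5:88002405-88002524, plus strand: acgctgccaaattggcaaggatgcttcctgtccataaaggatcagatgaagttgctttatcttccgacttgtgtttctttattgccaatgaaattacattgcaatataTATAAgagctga
Dcpp1, chr17:23880756-23880875, plus strand: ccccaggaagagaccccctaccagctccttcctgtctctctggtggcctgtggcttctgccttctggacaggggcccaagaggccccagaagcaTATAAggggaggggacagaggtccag
Pip, chr6:41847429-41847548, plus strand: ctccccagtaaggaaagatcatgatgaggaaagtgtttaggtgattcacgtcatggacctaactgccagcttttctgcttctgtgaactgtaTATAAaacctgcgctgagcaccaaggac
Aqp5, chr15:99590908-99591027, plus strand: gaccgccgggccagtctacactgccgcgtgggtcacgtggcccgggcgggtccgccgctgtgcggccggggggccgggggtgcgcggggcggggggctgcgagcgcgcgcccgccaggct
Slpi, chr2:164356508-164356627, minus strand: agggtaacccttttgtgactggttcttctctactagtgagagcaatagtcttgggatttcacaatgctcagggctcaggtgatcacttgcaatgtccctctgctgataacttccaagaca
TATAA on the strand of the gene stood in this window of Bpifa2, Amy1, Smr3a, Pip and all 3 Dcpp genes, and it was absent from the window of Aqp5, Slpi and the first start of Amy1. Of 32851 promoters of the same length, 8.53% held it on that strand and 11.8% on either strand. It began 40 bases before the start in Bpifa2, 63 in Amy1, 12 in Smr3a, 26 in Dcpp1 and 28 in Pip. TATAA was chosen after the windows had been read. CAGCTG, an E-box that is the same on both strands, was in none of the 10 windows and in 6.76% of all promoters.

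The 3 Dcpp genes lie next to each other on chromosome 17 and share much of their sequence. Over their coding sequences Dcpp1 and Dcpp2 were 93.8% identical, Dcpp1 and Dcpp3 93.2%, and Dcpp2 and Dcpp3 95.3%. The stretch of 60 coding bases in which they differed most is shown because it is where reads can best be assigned to one gene, and capitals mark the 15 positions that are not the same in all 3 genes (GRCm38, plus strand).
Dcpp1, chr17:23882552-23882611: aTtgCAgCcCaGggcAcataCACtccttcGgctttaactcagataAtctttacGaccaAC
Dcpp2, chr17:23900487-23900546: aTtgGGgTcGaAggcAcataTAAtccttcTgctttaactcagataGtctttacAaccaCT
Dcpp3, chr17:23919140-23919199: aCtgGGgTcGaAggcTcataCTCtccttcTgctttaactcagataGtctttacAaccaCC
Elsewhere the genes were alike enough that 19.9% of the 100-base words of Dcpp1, 20.2% of those of Dcpp2 and 26.7% of those of Dcpp3 also occurred in another gene. The split of reads among the Dcpp genes is therefore uncertain, as is that of 2 other genes. Smr3a shared 34.0% of its words with the overlapping Gm28434, which had 0 TPM in every tumour, and Amy1 shared 30.8% with the overlapping Rnpc3, which had at least 0.43 TPM and 12.9 TPM in Ecad female 3. Slpi overlapped Mir7678, and Muc19 overlapped Smgc, which had 0 TPM in every tumour.

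Total counts ran from 24036333 to 63923086 per tumour, and Ecad female 3 was among the deepest at 61267565. Dct, a melanocyte enzyme used to check the label of melanoma, had a median of 11257 TPM over the 32 tumours. It was 26329 TPM in Ecad female 3, the 3rd highest value, and 4.98 TPM in ΔEcad male 7, the lowest. Other melanocyte genes in Ecad female 3 went both ways against the median of the other tumours. Pmel, a protein of pigment granules, was lower at 141 TPM against 1509, and Tyrp1, a pigment enzyme, at 320 against 2255. Mitf, Sox10 and Oca2 were lower too. Tyr was higher at 1501 TPM against 735, Slc45a2 at 1852 against 937, Mlana at 12290 against 7163 and Gpnmb at 4479 against 2746. Cdh1, the targeted gene, had a median of 145 TPM in Ecad males and 3.29 in ΔEcad males, but 30.6 in Ecad females and 46.7 in ΔEcad females, with overlapping ranges in both sexes. The library labelled ΔEcad male 2 had 0 counts over 4 Y-linked genes, against at least 1459 in the other males, and 6.41 TPM of Xist, against at most 0.20.

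Ecad female 3 held nearly all the reads of 7 of the 10 genes. Together the 10 genes took 891595 of its counts, or 1.46% of its library (95% Wilson interval 1.45 to 1.46%, counting error only), whereas in the other 31 tumours they took 7.38e-05 to 0.0553%, with a median of 0.00211%. The next highest share, in Ecad female 7, came from 20976 counts of Slpi and 23 of Amy1.

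**Figure D1:**
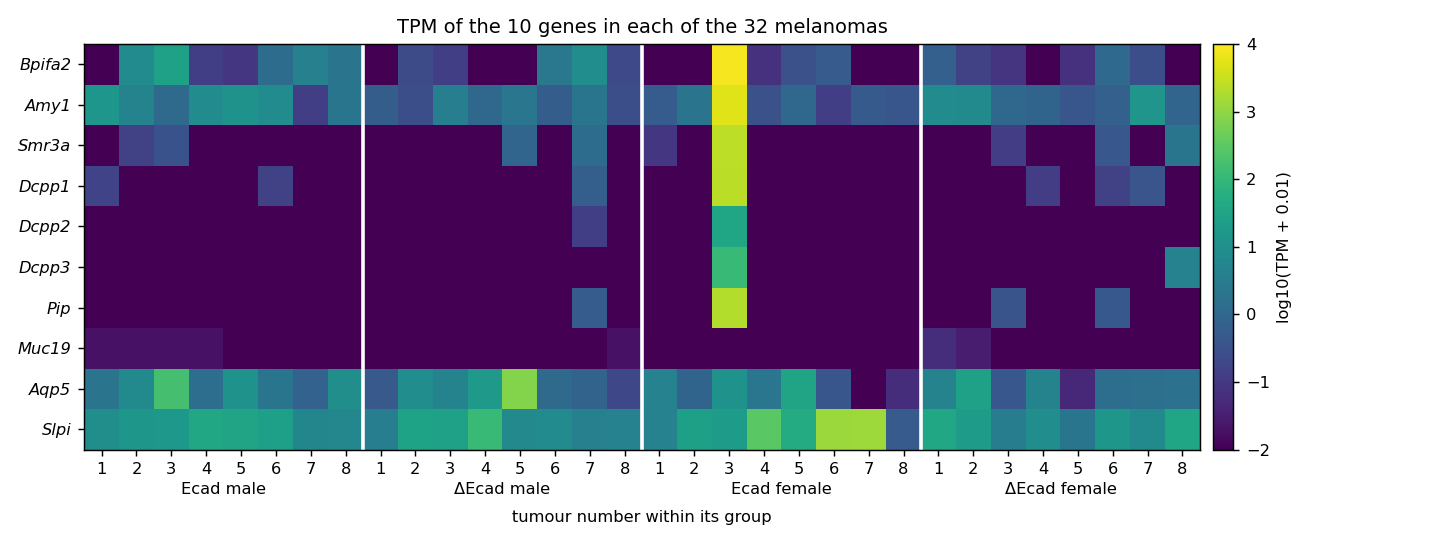
TPM of the 10 genes (rows) in the 32 melanomas (columns, numbered within each group), as log10(TPM + 0.01) on the colour scale. Ecad female 3 is the one column in which 7 rows are bright, while Aqp5 peaks in ΔEcad male 5, Slpi in Ecad females 6 and 7, and Muc19 nowhere exceeds 0.05 TPM.

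Bpifa2 (chromosome 2, 154008265 to 154016079, GRCm38) ran from 0 to 26.6 TPM in Ecad males, with a median of 1.69, and from 0 to 8.77 TPM in ΔEcad males, with a median of 0.16. In Ecad females the lowest value was 0, the median 0.03 and the highest 8313 TPM, and in ΔEcad females 0, 0.105 and 1.14 TPM. Ecad female 3 thus stood apart with 353755 counts, followed by Ecad male 3 with 781 counts. Of the Bpifa2 reads of all 32 tumours, 99.6% came from Ecad female 3. Among the other 31 tumours, 15 had more than 3 counts, the level taken here as the floor, and 10 had 0. Without Ecad female 3 the mean of the Ecad females was 0.127 ± 0.209 TPM (SD, n = 7), and that of the Ecad males was 5.26 ± 9.01 TPM (SD, n = 8), or 2.21 ± 2.85 TPM (SD, n = 7) without their own highest tumour, Ecad male 3.

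Amy1 (chromosome 3, 113555710 to 113606699) was the second most abundant of the 10 genes in Ecad female 3 by TPM and the first by counts. It had 367688 counts and 5037 TPM there, and 98.9% of its reads over the series. Unlike the other genes that peaked in this tumour, it was above 3 counts in all of the other 31. In Ecad males it had a lowest, median and highest value of 0.12, 6.30 and 14.6 TPM, and in ΔEcad males 0.27, 0.80 and 3.70 TPM. In Ecad females these values were 0.12, 0.525 and 5037 TPM, with the second highest at 2.05, and in ΔEcad females 0.39, 0.95 and 13.8 TPM. The groups overlapped, and Amy1 above 5 TPM occurred in 4 Ecad males, 3 ΔEcad females and Ecad female 3. The overlapping Rnpc3 was at 12.9 TPM in Ecad female 3, and over the other 31 tumours the Spearman rho of Amy1 and Rnpc3 was 0.168, given as a description. The part of Rnpc3 reads in the low Amy1 values was not tested.

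Smr3a, Pip and the Dcpp genes were close to absent outside Ecad female 3. Smr3a (chromosome 5, 88002549 to 88008534) had 2552 TPM there, from 34547 counts, and at most 2.19 TPM elsewhere, from 17 counts in ΔEcad female 8. Pip (chromosome 6, 41847535 to 41852065) had 2022 TPM from 102288 counts, and 0 counts in 28 of the other 31 tumours. Its only other reads were 17 counts in ΔEcad male 7 and 12 each in ΔEcad females 3 and 6.

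The demilune proteins followed the same pattern at unequal levels. Dcpp1 (chromosome 17, 23880876 to 23882853) had 2334 TPM from 30499 counts in Ecad female 3, and the next tumour, ΔEcad male 7, had 5 counts. Dcpp3 (23917458 to 23919441) had 112 TPM from 1447 counts, followed by ΔEcad female 8 with 4.59 TPM from 34 counts. Dcpp2 (23880880 to 23900788, which overlaps Dcpp1) had 33.8 TPM from 459 counts, and its only other read was 1 count in ΔEcad male 7. Dcpp1 was thus the leading member of the trio in Ecad female 3, subject to the shared sequence described above, while ΔEcad female 8 had reads of Dcpp3 and 0 counts of Dcpp1 and Dcpp2.

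The remaining 3 genes did not peak in Ecad female 3. Muc19 had 0 counts there, which allows up to 0.0490 CPM (counts scaled to the library total), the level of 3 counts, for counting error only, and its highest value was 6 counts, or 0.05 TPM, in ΔEcad female 1. The annotation used lists Muc19 as a processed transcript and not as protein-coding. Aqp5 was 11.1 TPM in Ecad female 3, the 7th highest of the 32, and Slpi 20.8 TPM, the 14th highest. The tumour with the most salivary enzyme RNA was thus not the one with the most RNA of the acinar water channel.

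**Figure D2:**
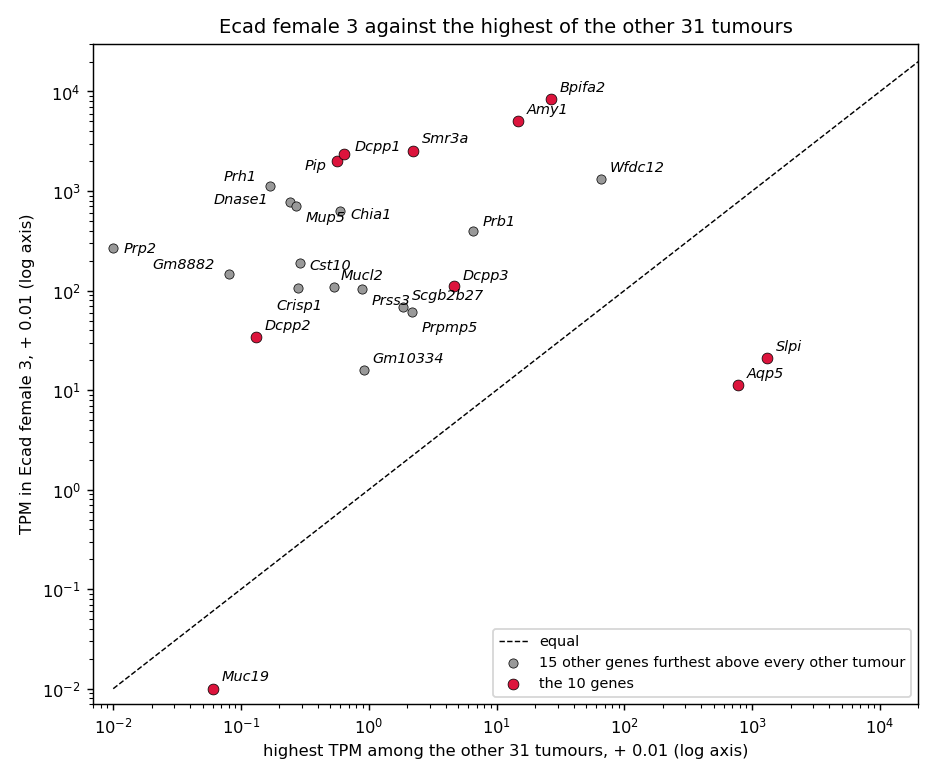
TPM in Ecad female 3 (vertical) against the highest TPM among the other 31 tumours (horizontal), both + 0.01 on log axes, for the 10 genes (red) and the 15 other genes furthest above every other tumour (grey). Of the red points, 7 lie far above the dashed line of equal values, and Slpi, Aqp5 and Muc19 lie below it.

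The low reads of these genes were far from the proportions of Ecad female 3 in several tumours and nearer to them in ΔEcad female 6. In those proportions the 781 Bpifa2 counts of Ecad male 3 would have come with 812 counts of Amy1, 226 of Pip and 67.3 of Dcpp1. Ecad male 3 had 59, 0 and 0. Ecad male 2, with 178 counts of Bpifa2, had 192 of Amy1 and 0 of Pip, against 185 and 51.5 in those proportions. ΔEcad male 7 had the broadest set, with 227 counts of Bpifa2, 96 of Amy1, 17 of Pip, 11 of Smr3a and 5 of Dcpp1, against 236 of Amy1, 65.6 of Pip, 22.2 of Smr3a and 19.6 of Dcpp1 in the proportions of Ecad female 3. ΔEcad female 6 came closer: beside 26 counts of Bpifa2 it had 26 of Amy1, 12 of Pip, 3 of Smr3a and 1 of Dcpp1, against 27.0, 7.52, 2.54 and 2.24 in those proportions. Its Smr3a and Dcpp1 counts were not above the floor of 3. ΔEcad female 8 had 17 counts of Smr3a, 34 of Dcpp3 and 0 of Bpifa2. Of the 7 genes, 1 was above 3 counts in 13 of the 31 tumours, 2 in 15, 3 in 2 (ΔEcad females 6 and 8) and 5 in 1 (ΔEcad male 7).

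Many other genes of salivary secretion had their highest level in the same tumour. Of 49 further salivary secreted proteins listed, 28 were above 3 counts in at least 1 tumour, and 17 of these, or 60.7%, had their highest TPM in Ecad female 3. Over all 25652 genes above 3 counts in at least 1 tumour, 4.47% had their highest TPM there. Among the 17, Prp2, Prh1, Mucl2, Cst10 and Klk1b9 were above 3 counts in no other tumour. They passed the filter only through Ecad female 3, which left little room for a peak elsewhere. The share over all genes holds such genes too. ΔEcad female 8 came next with 4 of the 28 genes, but the share of all genes that peak in that tumour was not computed. Of the 46 listed genes found, 25 were above 3 counts in Ecad female 3, against 5 to 14 in the other 31 tumours. The salivary profile of Ecad female 3 was thus incomplete. Genes at 0 counts there included Smr2, Bpifa1, Agr2 and several of the Klk1b genes. With Car6, which is abundant in most of the melanomas, set aside, the summed level of the other 45 genes found was 4499 TPM in Ecad female 3, against 1.85 to 1169 TPM and a median of 35.7 in the other 31. This is 1 tumour without a replicate, so no test was made.

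The list names proteins of saliva with several roles. Prh1, a proline-rich protein of saliva, had 1112 TPM in Ecad female 3 and at most 0.16 TPM elsewhere, and Prp2, of the same family, had 6103 counts and 0 in each of the other 31 tumours. Wfdc12, an antiprotease of the same domain family as Slpi, had 1311 TPM against at most 65.5. Dnase1, a secreted nuclease, had 769 TPM against at most 0.23. Among the genes outside the list, Chia1, a chitinase, had 624 TPM against at most 0.58, and Mup5, a lipocalin, had 708 TPM from 13877 counts against at most 3 counts. Mup5 belongs to a family of near-identical genes, although 1.33% of its 100-base words occurred in another gene.

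The 15 genes outside the 10 with the largest ratio over every other tumour encode mainly secreted proteins. Beside Prp2, Prh1, Dnase1, Mup5, Chia1 and Wfdc12 they were Gm8882, Prb1 and Prpmp5 of the proline-rich family, Cst10, Crisp1, Mucl2, Scgb2b27, and the trypsin-like Prss3 and Gm10334. Their TPM in Ecad female 3 ran from 15.8 for Gm10334 to 1311 for Wfdc12. Prss3 and Gm10334 shared 45.0% and 41.8% of their words with other trypsin genes, so their split is uncertain. Of 7222 protein-coding genes at 10 TPM or more in Ecad female 3, 26 were at least 10 times above every other tumour and 16 at least 100 times, 6 of the latter among the 10 genes followed here. The 26 genes held 2.66% of its TPM.

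Some genes of the cells that make saliva peaked there as well. Of 30 acinar and duct cell genes above 3 counts, 5, or 16.7%, had their highest TPM in Ecad female 3. They were Bhlha15, a transcription factor of secretory cells, at 5.84 TPM, Spdef at 6.99 and Fxyd2 at 19.1. The others were the immunoglobulin receptor Pigr at 5.04 TPM and Esp8 at 4.03, which was above 3 counts in no other tumour. The summed level of this list, 1130 TPM, ranked 25th of 32, and the most abundant gene in it was Sox10, which melanocytes also express. Krt8, a keratin of simple epithelia, was at 13.2 TPM against at most 3.38 elsewhere, and it was 1 of 16 simple epithelium genes, or 6.25%, that peaked there.

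Most markers of other exocrine and skin cells peaked in other tumours. Of 12 pancreatic acinar genes above 3 counts, 2, or 16.7%, had their highest value in Ecad female 3. This was the same share as among the acinar and duct cell genes. Of the 2, Cel was above 3 counts in no other tumour. Amy2a5, the pancreatic amylase, Cpa1, Prss2 and Pnlip had 0 counts in Ecad female 3. None of the 5 milk protein, 8 airway, 12 sebaceous gland, 10 myoepithelial, 19 keratinocyte, 18 wound epidermis or 22 neutrophil genes had its highest value there. The same held for the 10 melanocytic, 10 macrophage, 10 T cell, 11 B and plasma cell, 10 skeletal muscle and 8 fibroblast genes. The summed T cell list, at 12.7 TPM, was the lowest of the 32 tumours and the melanocytic list, at 47525 TPM, the 5th highest. Most of the melanocytic sum came from Dct, Mlana (12290 TPM) and Gpnmb (4479 TPM). These genes, Tyr and Slc45a2 were above the median of the other tumours, whereas Pmel, Tyrp1, Mitf, Sox10 and Oca2 were below it. In bulk samples such as these, fewer cells of a type and less RNA per cell cannot be told apart, and the part of any cell type in the values of the 10 genes was not tested.

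**Figure D3:**
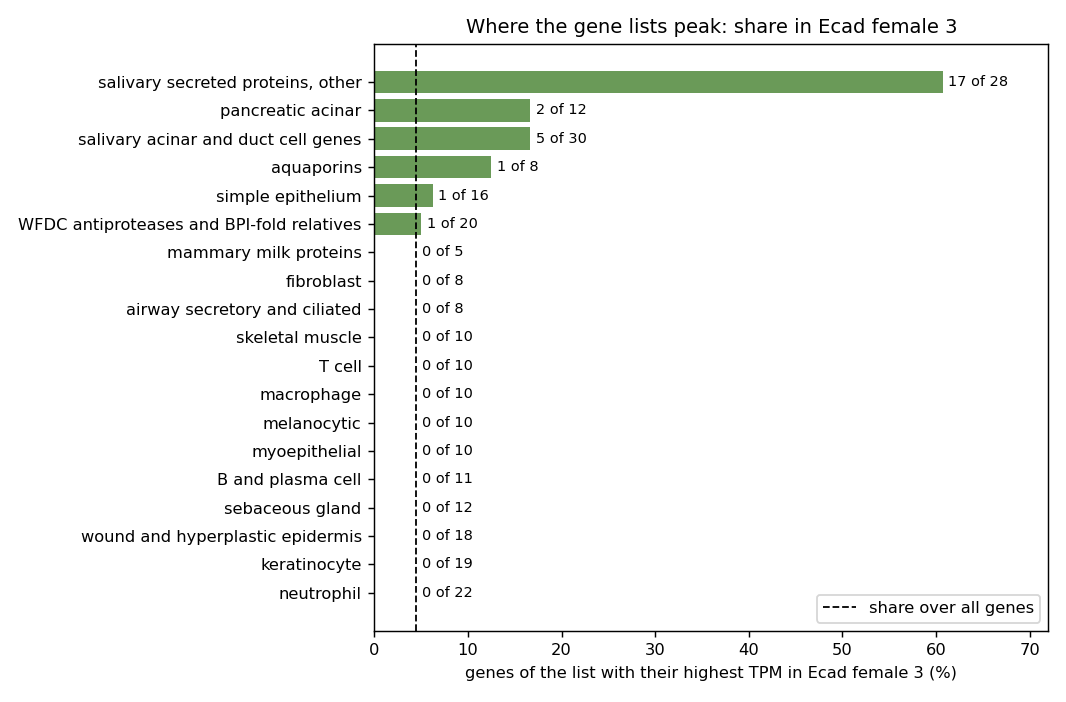
Share of the genes of each list (bars, in %) that had their highest TPM in Ecad female 3, among genes above 3 counts in at least 1 tumour, with the numbers beside the bars. The dashed line is the share over all genes, 4.47%, and the salivary secreted proteins stand at 60.7%. Genes above 3 counts only in Ecad female 3 are counted in both shares.

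Aqp5 (chromosome 15, 99590782 to 99594829) followed another order of tumours. It ran from 0.74 to 172 TPM in Ecad males, with a median of 4.51, and from 0.19 to 768 TPM in ΔEcad males, with a median of 3.00. Ecad females had 0 to 31.8 TPM and a median of 1.58, and ΔEcad females 0.04 to 27.4 TPM and a median of 1.67. The groups overlapped, and ΔEcad male 5 with 15438 counts and Ecad male 3 with 4184 counts stood above the rest. In ΔEcad male 5, Slc12a2, the chloride carrier that loads acinar cells for fluid secretion, also had its highest level, 1160 TPM, against a median of 81.8. The next highest Slc12a2 levels were 785 TPM in ΔEcad female 8, 771 in Ecad female 2 and 641 in Ecad female 1. Aqp5 was at only 1.68, 0.85 and 4.55 TPM in those tumours. ΔEcad male 5 had 0 counts of Bpifa2, Pip and the Dcpp genes, and 7 of Smr3a.

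Aqp5 was not the most abundant aquaporin of these tumours. Aqp1, of vessels and red cells, had a mean of 217 TPM over the 32 tumours and Aqp3, of epidermis, 69.3 TPM, against 34.4 TPM for Aqp5. In Ecad female 3, Aqp8 had its highest value of the series, 1.97 TPM, as 1 of 8 other aquaporins above 3 counts. The genes with the most similar pattern of log2 CPM over the 32 tumours were St6galnac2, listed under 2 identifiers with Pearson r of 0.719 and 0.655, and Ncmap with 0.642. These values share libraries and depth and are a description.

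Slpi (chromosome 2, 164354070 to 164389095) was the one gene of the 10 with more than 3 counts in all 32 tumours besides Amy1. It ran from 5.81 to 40.5 TPM in Ecad males, with a median of 15.7, and from 3.77 to 119 TPM in ΔEcad males, with a median of 7.28. Ecad females had 0.51 to 1307 TPM and a median of 36.9, and ΔEcad females 2.16 to 36.7 TPM and a median of 11.9. All ranges overlapped, and the values above 100 TPM were those of Ecad female 7 (1307), Ecad female 6 (1228), Ecad female 4 (286) and ΔEcad male 4 (119).

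These Slpi-rich tumours were not those rich in the salivary genes. Ecad females 6 and 7 had 16 and 0 counts of Bpifa2 and 0 of Smr3a, Pip and the Dcpp genes. They had the highest summed levels of B and plasma cell genes, 23013 and 19350 TPM, against 0.36 to 9576 TPM in the other 30 tumours. Over the 32 tumours the Spearman rho of Slpi with that list was 0.238, and ΔEcad male 7, with 9576 TPM of the list, had 4.01 TPM of Slpi. Ecad female 4 had the highest summed level of neutrophil genes, 11718 TPM, and the Spearman rho of Slpi with that list over 32 tumours was 0.512. The genes most like Slpi were Irak2 (Pearson r 0.668), I830127L07Rik (0.661) and the immunoglobulin segment Igkv14-100 (0.623), the last 2 of which peaked in Ecad female 7. The part of these cells in the Slpi values was not tested.

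Relatives of Slpi and Bpifa2 peaked in several tumours. Wfdc12, counted above with the salivary proteins, peaked in Ecad female 3. Of 20 further WFDC antiproteases and BPI-fold proteins above 3 counts, 1, or 5.00%, had its highest value in Ecad female 3, Bpifb9a at 0.44 TPM. The most abundant of this list, Wfdc17, had 17.9 TPM there and 962 TPM in Ecad male 4. Several BPI-fold genes had their highest values in Ecad male 3, the tumour with the second highest Bpifa2. They were Bpifa5 at 4.65 TPM, Bpifb4 at 4.13, Bpifa6 at 2.22, Bpifa1 at 1.24, Bpifb5 at 0.46 and Bpifb1 at 0.43 TPM. Bpifa3 and Bpifb3, which were at or under 3 counts in every tumour, also had their highest value there. All these levels were low, and the share of all genes that peak in Ecad male 3 was not computed. The genes were named after their values were seen, so no common pattern is read from them.

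**Figure D4:**
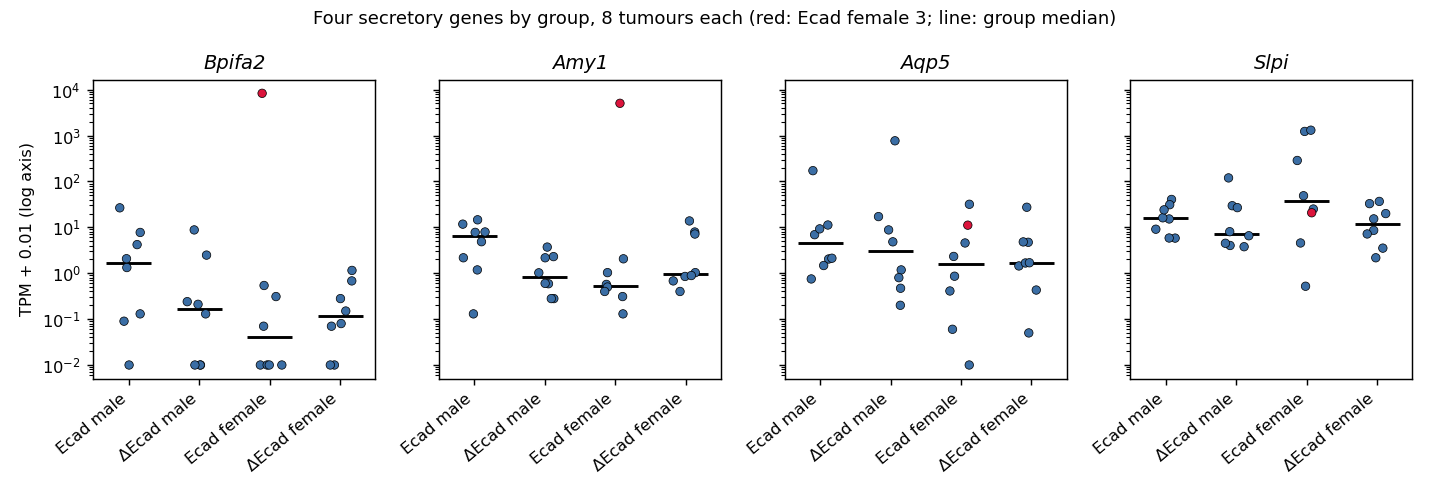
TPM + 0.01 on a log axis for Bpifa2, Amy1, Aqp5 and Slpi, with 1 point per tumour and 8 tumours per group, the median as a line and Ecad female 3 in red. Ecad female 3 is far above all others for Bpifa2 and Amy1 and lies within the other points for Aqp5 and Slpi.

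The 4 genes with reads in many tumours showed little common order. The Spearman rho of Bpifa2 and Amy1 was 0.162 over the 32 tumours and 0.0767 without Ecad female 3, and that of Bpifa2 and Slpi 0.0251. Amy1 and Aqp5 had the highest value of the 6 pairs, 0.434. The genes most like Amy1 were Scgb2b27 (Pearson r 0.874), Krt8 (0.819) and Gm43860 (0.812), and those most like Bpifa2 were Cnih2 (0.706), Gm6061 (0.699) and Gm26982 (0.683). Without Ecad female 3, in which all 6 genes peaked, these values were 0.754, 0.734 and 0.666 for Amy1 and 0.453, 0.542 and 0.399 for Bpifa2. Amy1 also ran with the summed keratinocyte genes, with a rho of 0.762 over 32 tumours. The summed keratinocyte level was 6.91 to 2534 TPM in Ecad females, with 911 in Ecad female 3, and 11.1 to 35069 TPM in Ecad males.

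The comparison of ΔEcad with Ecad males asked whether the genes differ with the deletion of Cdh1. A gene was called where edgeR gave an adjusted p under 0.05 with a change of more than 1 on the log2 scale. None of the 4 genes tested was called, a count of 0, beside 0% of all 17717 genes tested, and 1814 genes had an unadjusted p under 0.05. DESeq2 called 21 genes and limma 0, none of them among the 10. The other 6 genes had too few counts to be tested, so the 4 are not a sample of the 10. Bpifa2 had mean levels of 5.26 ± 9.01 TPM in Ecad males and 1.47 ± 3.06 TPM in ΔEcad males (SD, n = 8 each), and edgeR put ΔEcad against Ecad at -1.80 on the log2 scale, with an SE of 1.87 and an adjusted p of 0.741. The estimate for Bpifa2 was -0.49 without Ecad male 3 and -3.24 without ΔEcad male 7. Amy1 had 6.28 ± 5.16 and 1.36 ± 1.24 TPM, and the edgeR estimate was -2.10, with an SE of 1.52 and an adjusted p of 0.627. Neither difference passed the test, and the 2 male groups overlapped for both genes. The filter on low counts took in all tumours, and Bpifa2 was not testable in the fit of males alone. The main fit was a single model of all tumours, females included. The SE and p for Bpifa2 and Amy1 thus also carry the spread of the Ecad females, with Ecad female 3 among them. The lack of a call for these genes therefore does not rest on the males alone. Without Ecad female 3 the fit still called 0 genes in males. The lowest edgeR, DESeq2 or limma adjusted p of Amy1 under any alternative was 0.157.

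For Aqp5 and Slpi the sign of the estimate turned on single tumours. Aqp5 had 25.7 ± 59.1 TPM in Ecad and 100.2 ± 269.9 TPM in ΔEcad males, and the edgeR estimate was 1.79, with an SE of 1.44 and an adjusted p of 0.662. It was -2.35 without ΔEcad male 5 and 4.23 without Ecad male 3. Slpi had 18.5 ± 12.5 and 25.3 ± 39.4 TPM, and the edgeR estimate was 0.48, with an SE of 0.94 and an adjusted p of 0.873. It was -0.31 without ΔEcad male 4. Without the library labelled ΔEcad male 2, the estimates were -1.65 for Bpifa2, -1.96 for Amy1, 1.96 for Aqp5 and 0.34 for Slpi. The median of the 4 estimates was -0.66, beside 0.11 over all genes tested. In males, the lists of other salivary secreted proteins and of acinar and duct cell genes had 0 of 11 and 0 of 25 tested genes called, with medians of -0.61 and -0.33.

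**Figure D5:**
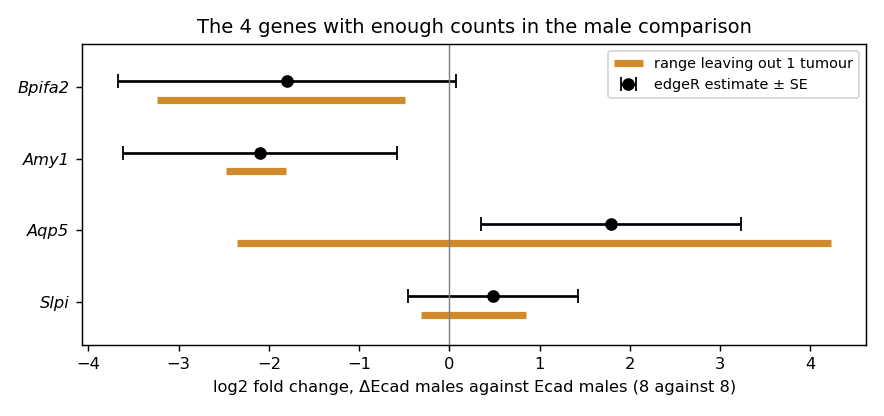
Log2 fold change of ΔEcad against Ecad males (horizontal axis) for the 4 genes with enough counts, as the edgeR estimate with its SE (black) and the range of estimates when 1 tumour at a time was left out (orange). The range for Aqp5 runs from -2.35 to 4.23 and that for Slpi from -0.31 to 0.85, so both cross 0.

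In females the same fit called 213 genes, 1.20% of those tested, of which 205, or 1.16%, were higher and 8, or 0.0452%, were lower in ΔEcad. Among the 8 were Bpifa2, Amy1 and Slpi, but the genes were picked with this comparison in view, so nothing is read from these calls. The fitted log2 fold changes were -12.13 for Bpifa2, -7.54 for Amy1, -4.81 for Slpi and -0.33 for Aqp5. Without Ecad female 3 they were 1.03 for Bpifa2, 2.70 for Amy1, -4.99 for Slpi and -0.07 for Aqp5, and 1 gene was called over the whole table. The sign for Bpifa2 and Amy1 in females thus rested on Ecad female 3. Leaving out Ecad female 6 or 7, the tumours with the most Slpi, gave -4.12 or -4.17 for Slpi.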

How the data were processed

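RNA of 32 mouse tumours was extracted (miRNeasy) and sequenced from stranded polyadenylated libraries. The authors aligned reads to GRCm38.p5 with STAR after FastQC 0.11.5, and deposited counts per gene and a TPM table. Each TPM value equalled the deposited count rescaled by 1 length per gene (within 0.0683% over 996 abundant genes). The methods name a batch correction (ComBat) without saying for which data, and do not state whether counting used strand. Symbols came from GENCODE M21, which named 50376 of 50600 identifiers.

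Groups came from the labels. Counts were tested with edgeR 4.0.16 (TMM factors, filter on low counts by group, robust quasi-likelihood, 1 model of 32 tumours), with Benjamini-Hochberg adjustment over the 17717 genes that passed. DESeq2 1.42.0, which replaces counts it takes as outliers, and limma 3.58.1 were alternatives. The edgeR script was tested on simulated data. Log2 CPM used a prior count of 1. Levels within and between genes are TPM unless named as counts. Depth was 24036333 to 63923086 counts per tumour. Named genes were the 10 members, the 15 others with the largest ratio of TPM in Ecad female 3 to the highest elsewhere, the 3 most similar genes by Pearson r, and the leading genes of each list. Slc12a2, Aqp8, the BPI-fold genes that peaked in Ecad male 3, Pigr, Oit1 and Prol1 were also named after their values were seen. The same holds for Klk1b9, Cel, Xbp1, Creb3l1, Ano1, the genes beside members and most of the melanocyte genes. Values of 1 listed gene are not reported here. The members and lists were chosen with earlier results of these data known. The other alternatives were RLE factors, library totals, no filter, one sex alone, tumour number as a block, no robust estimation, keratinocyte and melanocytic scores as covariates, and each tumour left out in turn.

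Same-numbered tumours of the 2 genotypes did not deviate together: correlations ran from -0.496 to 0.263 in males and from -0.304 to 0.294 in females, so numbers were not taken as pairs.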

Additional observations from a re-analysis of the deposited data

Results flagged for a closer look

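A single tumour stood far from the other 7 of its group, by Dixon's criterion on log2 CPM, in 10 of 28 groups of values with any tumour above 3 counts. Chance gives about 1 in 20 groups where all values can vary, a rate that does not apply here: in 7 of the 10 the other 7 tumours all had 0 counts, so any tumour above 3 counts stood out. Ecad female 3 was the high tumour in 7 of them, at 12.83 for Bpifa2, 12.89 for Amy1, 9.48 for Smr3a, 11.04 for Pip, 9.30 for Dcpp1, 3.25 for Dcpp2 and 4.90 for Dcpp3. These 7 genes belong to 1 library and are not independent of each other, and Bpifa2 was the reason the tumour was looked at.

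ΔEcad male 7 stood out for Pip at -1.22 (17 counts) and for Dcpp1 at -2.78 (5 counts), in a group whose other 7 tumours had 0 counts of both. ΔEcad female 8 stood out for Dcpp3 at -0.39 (34 counts), again against 0 counts in the other 7.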

How the results depend on the processing

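No member was called in males under any alternative, with adjusted p of 0.562 to 0.940 for Bpifa2, 0.157 to 0.938 for Amy1, 0.449 to 0.993 for Aqp5 and 0.764 to 0.985 for Slpi. Of 103 alternative estimates, 4 changed sign: Aqp5 was -0.33 with the replicate block and -2.35 without ΔEcad male 5, and Slpi was -0.086 with limma and -0.31 without ΔEcad male 4. Leaving out 1 tumour moved Bpifa2 from -3.24 to -0.49, Amy1 from -2.48 to -1.81, Aqp5 from -2.35 to 4.23 and Slpi from -0.31 to 0.85. The cause of the limma sign was not tested. Bpifa2 was not testable in the fit of males alone. The replicate block (tumour number as a term) gave -1.43 for Bpifa2, -2.88 for Amy1 and 0.23 for Slpi and 0 genes called in males, but tumour numbers did not pair tumours. The count of genes called in males was 0 except with DESeq2 (21). In females it was 213, and 322 with RLE factors, 333 with library totals, 555 without a filter, 8 with covariates, 1281 with DESeq2, 1 each with limma, females alone or the replicate block, and 1 to 695 leaving out 1 tumour. DESeq2, which replaces outlying counts, gave 0.84 for Bpifa2 and 1.64 for Amy1 in females. Group means were set by single tumours: that of Bpifa2 in Ecad females was 1039 ± 2939 TPM (SD, n = 8) and 0.127 TPM without Ecad female 3, so staying within that spread says nothing about stability. A gene with 0 counts could still have up to 0.0469 to 0.125 CPM, depending on the tumour.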

Other observations

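Car6, a carbonic anhydrase secreted in saliva, was abundant in melanomas without the other salivary genes. Its mean was 1450 TPM over the 32 tumours. It had 6056 TPM in Ecad male 7, 5762 in ΔEcad male 5 and 4065 in ΔEcad male 8, against 3059 in Ecad female 3, and 2.82 in ΔEcad male 7, the tumour with the lowest Dct.

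ΔEcad female 8 shared some secretory genes with Ecad female 3 and differed in others. It was the second highest tumour for several genes that peaked in Ecad female 3, with Smr3a at 2.19 TPM, Dcpp3 at 4.59, Pigr at 3.85, Oit1 at 1.98 and Prol1 at 0.64 TPM. Ltf, the iron-binding lactoferrin, was at 986 TPM there and 0.94 in Ecad female 3, and Wfdc18 was at 164 TPM against 49.1. Smr2 at 1.95 TPM and Agr2 at 1.40 TPM also peaked in ΔEcad female 8, and both had 0 counts in Ecad female 3. No explanation of these values was tested.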
